A study of Rattus norvegicus with 12 samples.

Results

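Propiconazole is a triazole fungicide, and the comparison described here set liver RNA of 3 rats given propiconazole against that of 3 control rats, which are 6 of the 12 livers of the series. The arrays were chosen by their titles, and all probe sets other than Affymetrix control probe sets were taken, so no expression value decided what was compared. All rats were adult male Sprague-Dawley rats, an outbred stock, aged 10 weeks, and dosing was by gavage every 24 h over 72 h. Propiconazole was given at 300 mg/kg/day. The labels do not say what the control rats were given. The other 2 groups of the series, each also of 3 rats, received 175 mg/kg/day of triadimefon or 300 mg/kg/day of myclobutanil, and they appear here only where propiconazole is set beside them. Each array held RNA of 1 liver, so the spread between arrays is a spread between animals.

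Triazole fungicides block the fungal sterol demethylase, whose mammalian counterpart is Cyp51, an enzyme of cholesterol synthesis. In liver many such compounds also activate the receptors CAR and PXR, which switch on genes for the oxidation, conjugation and export of foreign compounds. A growing or stressed hepatocyte changes other programmes as well: the nucleolus assembles ribosomes from ribosomal RNA and imported proteins, and heat shock factor and NRF2 switch on chaperone and antioxidant genes when proteins or thiols are damaged. The liver also holds endothelial, stellate and Kupffer cells beside hepatocytes, and an array of whole liver reads them all together.

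Levels are the deposited scores of each probe set after quantile normalization. They behave as logarithms whose base is not stated, so a difference is given in these log-like units and never as a fold. For scale, the spike-in transcripts cre and bioB lay 2.73 units apart in the median array. Where 3 levels are listed for a group they belong to livers 01, 02 and 03 in that order, a value after ± is the standard error (SE) of limma over 3 arrays a group, and adjusted p is limma's p after Benjamini-Hochberg adjustment over all 21729 probe sets tested. A gene is said to have risen or fallen only where that p was under 0.05. The 6 arrays had deposited medians of 0.027 to 0.055 and median correlations with the other arrays of 0.956 to 0.975. The 3' probe set of GAPDH exceeded the 5' one, a gap that widens as RNA degrades, by 0.37 to 0.81 in the control livers and 0.35 to 0.55 in the propiconazole livers, and the part of this gap in the results was not tested. The tissue label was checked on the arrays: albumin (Alb) had the highest level of all genes on each of the 6, and the 9 tested pancreas markers averaged 0.11 to 0.19.

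Propiconazole was followed by changes in 311 of 21729 probe sets, 176 higher and 135 lower, or 1.43% of those tested. Counted with 1 probe set for each gene, 118 of 11842 genes rose (0.996%) and 81 fell (0.684%). The 3 propiconazole livers did not overlap the 3 control livers in any of these 199 genes, but the same was true of 30.9% of all genes tested, so the lack of overlap alone says little. Most changes were small: the median rise was 0.41 and the median fall -0.40, against differences between -0.21 and 0.25 from the 5th to the 95th percentile of all genes. A rise of at least 1 unit was seen in 6 genes and a fall of at least 1 unit in 6 genes. Of the 100 genes with the highest levels 2 passed, the apolipoprotein gene Apoa1 and the steroid hydroxylase gene Cyp3a23-3a1, which is close to the 1.68% of all genes that passed.

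How many genes passed changed when single animals were left out. Without control liver 01, 02 or 03 the count of probe sets fell from 311 to 54, 43 or 36, and without propiconazole liver 01, 02 or 03 it was 49, 170 or 46. Each such fit also has fewer arrays, so the weight of a single animal and the loss of an array cannot be told apart. The array of myclobutanil liver 01 belongs to neither group. It enters through the shared estimate of spread, the joint normalization, the filter on level and the choice of probe sets. This array stood apart from the others with a median correlation of 0.920, and without it 969 probe sets passed. With each array centred on its median in place of quantile normalization, 158 probe sets were higher and 63 lower, so that 71.5% of the calls were rises against 56.6% in the main analysis. In all, 3153 probe sets (14.5%) had an unadjusted p under 0.05.

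The scaling of the arrays also decided calls. Of the 199 called genes, 41 did not pass with the deposited values, 73 did not after median centring and 31 passed in neither, while no difference changed sign. Those named in the text that passed only with quantile normalization are Apoa1, Aqp9, Coq10a, Cth, Cyp3a23-3a1, Nnmt, Nsdhl, Psmd5, Ptp4a1, Rb1, Sat1 and Ugt2b1. Acer2, Cpt2, Ctps1, Fgfr2, Foxa3, Gk, Gnl3, Il33, Nop56, Pdgfra, Ppard, Ptprf, Rrs1, Sgms1, Tek, Tsr1, Utp3 and Wdr43 passed with the deposited values but not after median centring, and Adra1b and Bnip3 passed after median centring but not with the deposited values.

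**Figure D1:**
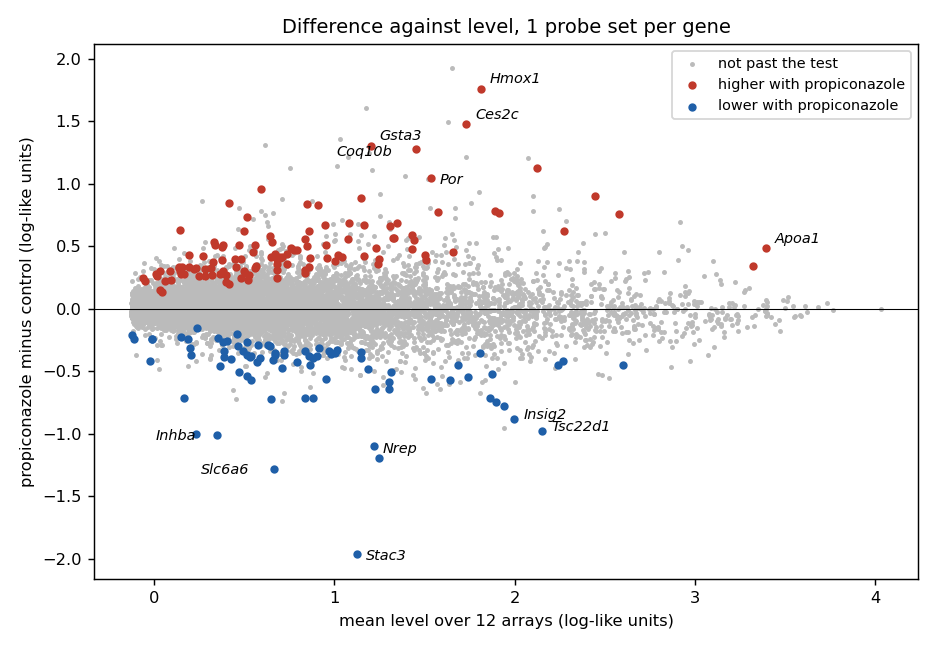
Each point is 1 gene, with its mean level over the 12 arrays on the x axis and the difference of the propiconazole from the control mean on the y axis, both in log-like units. The 118 genes that rose (red) and the 81 that fell (blue) lie at all levels of the scale, with Hmox1 highest and Stac3 lowest among them, and the grey points did not pass the test.

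Of the 118 genes named here by rule, 80 passed the test, and 13 of these still passed whichever of the 6 livers was left out. Cytochrome P450 reductase (Por) hands electrons to every microsomal P450. Its level was 1.11, 0.66 and 0.65 in the control livers and 1.74, 1.95 and 1.86 in the propiconazole livers, a rise of 1.04 ± 0.13 (adjusted p = 0.00642). The carboxylesterase gene Ces2c had 0.94, 0.63 and 0.74 in control and 2.34, 2.51 and 1.90 with propiconazole, and the retinaldehyde-oxidizing Aldh1a1 had 1.52, 1.19 and 1.37 against 2.65, 2.54 and 2.27. Both rose by more than 1 unit (1.48 ± 0.18 and 1.13 ± 0.14, adjusted p = 0.00582 and 0.00661). For all 3 genes the lowest treated liver lay above the highest control liver, as in every gene that rose. Ces2c and Aldh1a1 have close paralogs that their probe sets may also read. The mitochondrial coenzyme Q binding protein gene Coq10b stood at 0.67, 0.40 and 0.57 in control and 1.98, 1.71 and 1.81 with propiconazole (rise of 1.28 ± 0.17, adjusted p = 0.00682).

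The other 3 rises that held without any 1 liver were in unrelated functions. Argininosuccinate lyase (Asl), which releases arginine in the urea cycle, was at 1.61, 1.55 and 1.43 in control and 2.37, 2.36 and 2.21 with propiconazole, a rise of 0.78 ± 0.099 (adjusted p = 0.00661). Phosphopantothenoylcysteine synthetase (Ppcs), an enzyme of coenzyme A synthesis, went from 1.21, 1.14 and 1.20 to 1.94, 2.05 and 1.87 (0.77 ± 0.088, adjusted p = 0.00492). The noncoding small nucleolar RNA host gene Snhg4 was near the bottom of the scale in all control livers, at -0.33, -0.30 and -0.30, and at 0.36, 0.21 and 0.39 in the treated ones (0.63 ± 0.08, adjusted p = 0.00661). In Ppcs and Snhg4 the control livers were nearly identical, and the treated livers lay farther apart.

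Among the falls that held, the largest was that of Stac3, an adaptor known from calcium release in skeletal muscle: 2.68, 2.50 and 2.57 in the control livers and 0.30, 0.93 and 0.62 in the treated ones, a fall of 1.97 ± 0.25 (adjusted p = 0.00661). It was the only one of 7 tested muscle genes to pass, and the median of the 7 was -0.041. The activin A subunit gene Inhba was 1.14, 1.04 and 1.03 in control and -0.089, -0.065 and 0.34 with propiconazole, so liver 03 kept more of it than the other 2 treated livers (-1.01 ± 0.11, adjusted p = 0.00492). The clock transcription factor gene Npas2 stood at 0.67, 0.64 and 0.70 against 0.083, -0.032 and -0.19 (-0.72 ± 0.091, adjusted p = 0.00661), and the tight junction gene Cldn1 at 0.98, 0.81 and 0.88 against 0.43, 0.44 and 0.29 (-0.50 ± 0.066, adjusted p = 0.00718). All 3 probe sets of Cldn1 and both of Inhba were lower, and 2 of each passed. Rprm, which is induced by p53 and halts the cell cycle, fell by 0.42 ± 0.042 (adjusted p = 0.00469), from 0.28, 0.25 and 0.19 to -0.17, -0.18 and -0.18. Its treated levels had almost no spread but lay below the deposited medians of the 6 arrays (0.027 to 0.055), where a small spread says little. The olfactory receptor gene Olr59 was 1.19, 1.27 and 1.03 in control and 0.46, 0.55 and 0.31 with propiconazole (-0.73 ± 0.094, adjusted p = 0.00682).

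**Figure D2:**
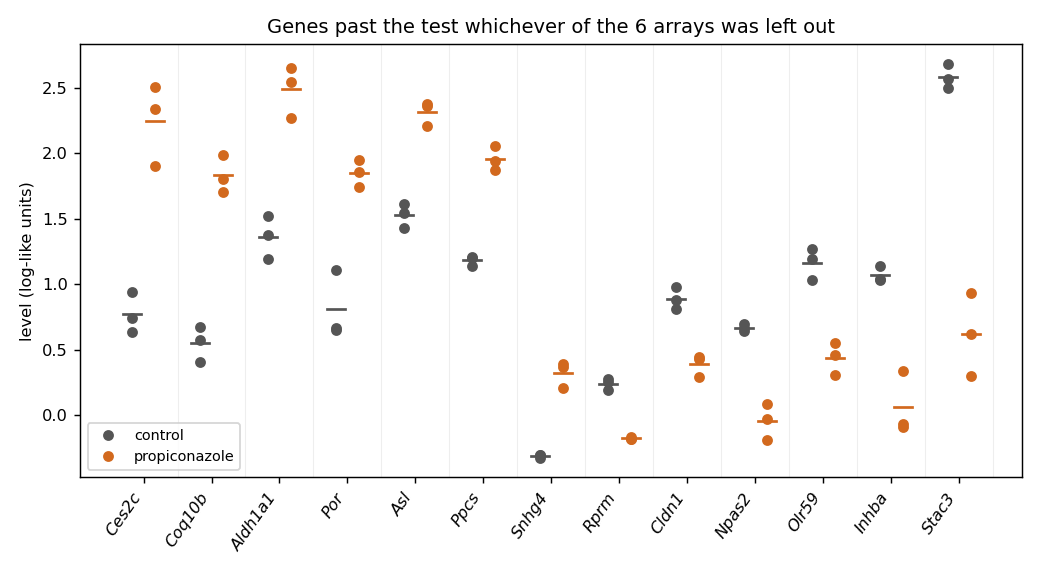
Levels in log-like units for each control liver (grey) and each propiconazole liver (orange), with a bar at the group mean. Shown are the 13 of the 80 named genes past the test that still passed whichever of the 6 livers was left out. The groups do not overlap in any of the 199 genes that passed, so the gap seen here follows from the choice of genes. Stac3, whose means lie 1.97 units apart, shows the widest separation.

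Several genes of drug metabolism rose. Of 31 tested CAR and PXR targets, 6 rose and 0 fell (25 did not pass), with a median difference of 0.20 against -0.013 over all genes tested. Over all genes 0.996% rose and 0.684% fell, the shares to set beside the counts of this and the later lists. Only probe sets assigned to 1 gene count here, so targets read by a probe set shared among several genes are left out. With the deposited values or after median centring 4 of the 31 rose, and the median was 0.099 or 0.115. Beside Por, Ces2c and Aldh1a1, the glutathione transferase gene Gsta3 was 0.18, 0.15 and -0.041 in control and 1.46, 1.32 and 1.42 with propiconazole (1.30 ± 0.18, adjusted p = 0.00954). The glucuronosyltransferase gene Ugt2b1 was 1.73, 1.32 and 2.09 against 2.67, 2.64 and 2.53 (0.90 ± 0.15, adjusted p = 0.0224), with control livers more scattered than treated ones. Cyp3a23-3a1 was already among the 100 highest genes in control, at 2.93, 3.10 and 3.07, and reached 3.44, 3.29 and 3.39 (0.34 ± 0.06, adjusted p = 0.024). All of these 3 have close paralogs. Of the 6, Ugt2b1 and Cyp3a23-3a1 did not pass with the deposited values (0.82 and 0.099, adjusted p = 0.088 and 0.867) or after median centring (0.84 and 0.115, adjusted p = 0.0742 and 0.833). The epoxide hydrolase gene Ephx1 and the efflux pump genes Abcc2 and Abcc3 did not pass (0.70 ± 0.21, 0.52 ± 0.18 and 0.40 ± 0.11, adjusted p = 0.149, 0.212 and 0.109), and these were chosen after their values were seen. Cyp1a1, the classical dioxin receptor target, rose from 0.028, 0.062 and 0.056 to 1.08, 0.59 and 1.34 (0.96 ± 0.18, adjusted p = 0.0278), with liver 02 lowest of the treated, whereas the other 6 of 7 dioxin receptor targets tested did not pass, Cyp1a2 among them at -0.044 ± 0.14 (adjusted p = 0.927). The highest adjusted p with 1 liver left out was 0.0585 for Gsta3, 0.0848 for Ugt2b1, 0.105 for Cyp3a23-3a1 and 0.117 for Cyp1a1.

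Among the heme genes 2 rose, and those of heme synthesis did not pass. Heme oxygenase (Hmox1), which opens the heme ring, was 0.86, 0.95 and 0.76 in control and 2.69, 2.24 and 2.92 with propiconazole, the largest rise of a gene that passed (1.76 ± 0.29, adjusted p = 0.0199, reaching 0.0922 with 1 liver left out). Biliverdin reductase B (Blvrb) went from 0.97, 0.93 and 1.03 to 1.45, 1.49 and 1.45 (0.49 ± 0.082, adjusted p = 0.0218, reaching 0.103). These were the 2 of 21 tested heme genes that rose, and 0 fell. Alas1, the first and limiting enzyme of heme synthesis, was 1.83, 1.78 and 1.17 in control and 1.79, 1.68 and 1.72 with propiconazole. Those groups overlapped, and control liver 03 was the lowest of all 6 (0.13 ± 0.16, adjusted p = 0.762). Hmox1 was also the only one of 20 tested NRF2 targets to pass, though 17 of the 20 lay above 0 (median 0.16).

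Among carriers of the hepatocyte surface, 1 uptake transporter and 1 efflux pump fell. Of 21 tested uptake transporters, 2 lay above 0, the median was -0.17, and 1 fell: the sulfate transporter gene Slc13a4 was 1.59, 1.49 and 1.39 in control and 0.77, 0.78 and 0.76 with propiconazole (-0.72 ± 0.10, adjusted p = 0.0113). Among all genes tested 5202 of 11842 lay above 0. The organic anion transporter genes Slco1b2 and Slc22a8 did not pass with the probe sets that represent them (-0.39 ± 0.12 and -0.50 ± 0.21, adjusted p = 0.155 and 0.316), but another probe set of each did, at -0.50 ± 0.10 and -0.60 ± 0.13 (adjusted p = 0.0407 and 0.0483). On the export side Abcc6 was the 1 of 18 efflux pumps that fell, from 1.95, 1.88 and 1.89 to 1.33, 1.47 and 1.24 (-0.56 ± 0.08, adjusted p = 0.0113), and 0 rose. The taurine transporter gene Slc6a6 was 1.36, 1.77 and 1.40 in control and 0.29, 0.26 and 0.13 with propiconazole (-1.28 ± 0.18, adjusted p = 0.0113), with both of its probe sets lower and past the test. Without 1 liver the adjusted p reached 0.0561 for Slc13a4, 0.059 for Abcc6 and 0.059 for Slc6a6.

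Ribosome biogenesis held the most calls of the 45 lists of gene functions. Of 41 tested genes, 11 rose and 0 fell, 40 lay above 0, and the median difference was 0.24. Among all genes tested 0.996% rose and 43.9% lay above 0. Gnl3 (nucleostemin), a nucleolar GTPase, was 1.04, 0.95 and 1.24 in control and 1.76, 1.57 and 1.55 with propiconazole (0.55 ± 0.11, adjusted p = 0.0406). Rrs1, needed for the large subunit, was 0.17, 0.34 and 0.40 against 1.06, 0.66 and 0.79 (0.53 ± 0.11, adjusted p = 0.0431), and Gar1, which binds the guide RNAs that place pseudouridines, was 0.15, 0.22 and 0.27 against 0.75, 0.59 and 0.83 (0.51 ± 0.085, adjusted p = 0.0199). The treated livers were close to each other in Gnl3 and Gar1, while liver 01 stood highest in Rrs1. The small subunit maturation gene Tsr1 (0.51 ± 0.11), the RNA helicase gene Ddx21 (0.49 ± 0.089) and the box C/D core protein gene Nop56 (0.38 ± 0.077) also rose (adjusted p = 0.0415, 0.0276 and 0.0383). The others were Wdr12 (0.34 ± 0.062), Heatr1 (0.34 ± 0.067), Ltv1 (0.30 ± 0.047), Wdr43 (0.27 ± 0.057) and Ddx56 (0.25 ± 0.051). The smallest of these rises was also the tightest, with Ddx56 at 0.37, 0.37 and 0.37 in control and 0.62, 0.61 and 0.62 with propiconazole. Nop58, the partner of Nop56, had the largest difference of the list and did not pass (0.64 ± 0.16, adjusted p = 0.0855), since treated liver 02 lay near the controls (0.66, 0.89 and 0.97 against 1.60, 1.12 and 1.72).

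The calls in this list changed when single livers were left out, while the direction of its genes hardly did. Without control liver 01, 02 or 03, or without propiconazole liver 01 or 03, 0 of the 41 genes passed, and without propiconazole liver 02 it was 5, while 39 or 40 of the 41 lay above 0 each time. Before adjustment 30 of the 41 had a p under 0.05 and were higher and 0 were lower, against 8.54% and 7.75% of all genes. Without myclobutanil liver 01 the count was 19. Other nucleolar genes outside the list rose as well and were picked out after their values were seen: Nifk, which binds the proliferation antigen Ki-67 (0.66 ± 0.12, with 3 of 3 probe sets higher), Dcaf13 (0.57 ± 0.12), Pak1ip1 (0.51 ± 0.086), Brix1 (0.47 ± 0.087), Pno1 (0.44 ± 0.07), Utp3 (0.41 ± 0.085), Mphosph10 (0.33 ± 0.059) and Utp14a (0.31 ± 0.057). Their adjusted p lay between 0.017 for Pno1 and 0.0414 for Dcaf13. Ctps1, which makes the CTP that RNA synthesis consumes, was -0.014, 0.027 and -0.061 in control and 0.48, 0.29 and 0.45 with propiconazole (0.42 ± 0.083, adjusted p = 0.0346). Myc, a transcription factor known to drive ribosome production, did not pass: it was 0.31, 0.088 and 0.28 in control and 0.72, 0.092 and 1.29 with propiconazole, high in treated livers 01 and 03 and not in 02.

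**Figure D3:**
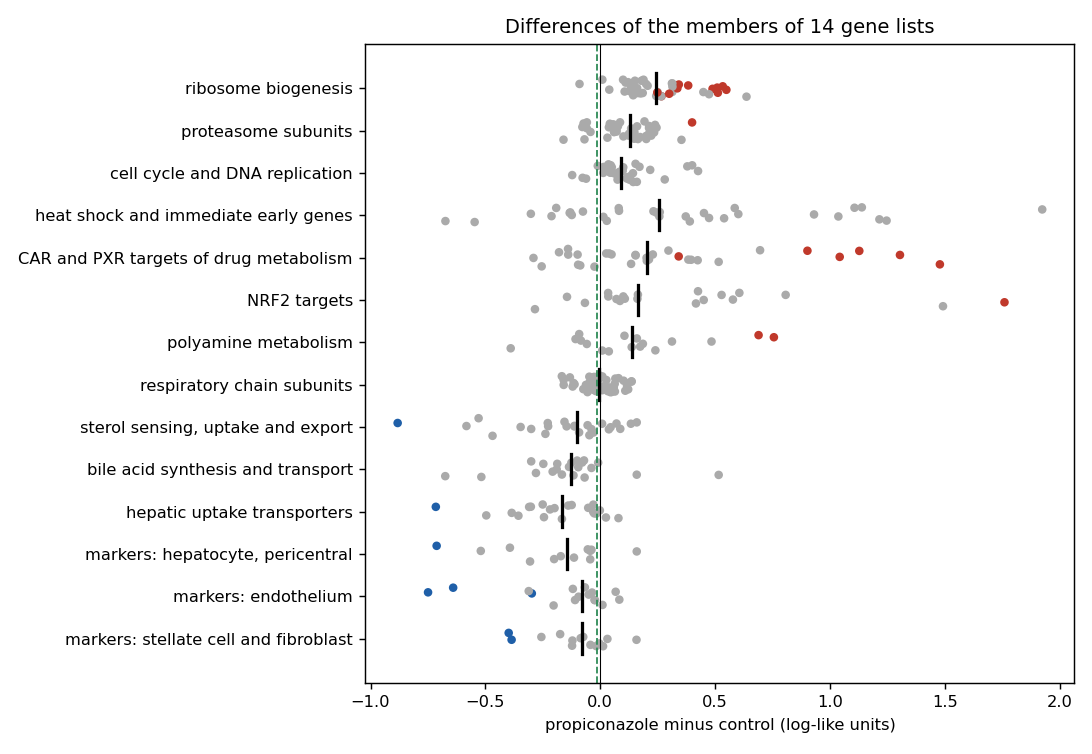
Each point is 1 tested gene of the list named on the left, at its difference of propiconazole from control in log-like units on the x axis. Red points rose and blue points fell, grey points did not pass, black bars are the list medians and the dashed green line is the median of all genes (-0.013). Ribosome biogenesis genes lie nearly all to the right of 0, uptake transporters and bile acid genes nearly all to the left.

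The promoters of the ribosome biogenesis genes were read for the E-box CACGTG, a letter string that Myc and related factors can bind, which was added after the data had been seen. Only the 250 bases before the start of each gene were searched, in RefSeq promoters of the rat assembly GRCr8. There 9 of the 37 listed genes with a promoter held it (24.3%), against 8.12% of the 9836 tested genes with one. Of the called members with a promoter 2 of 9 held it, Gnl3 and Ltv1, and their 250 bases before the start are shown 5′ to 3′ with the E-box in capitals. Both genes lie on the minus strand, Gnl3 with chr16:6219783-6220032 and Ltv1 with chr1:9398558-9398807.
Gnl3: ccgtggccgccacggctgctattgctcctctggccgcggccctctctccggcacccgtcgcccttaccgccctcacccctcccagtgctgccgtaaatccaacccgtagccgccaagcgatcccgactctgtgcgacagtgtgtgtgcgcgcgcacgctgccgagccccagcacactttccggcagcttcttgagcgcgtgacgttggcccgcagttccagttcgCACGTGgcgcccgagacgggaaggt
Ltv1: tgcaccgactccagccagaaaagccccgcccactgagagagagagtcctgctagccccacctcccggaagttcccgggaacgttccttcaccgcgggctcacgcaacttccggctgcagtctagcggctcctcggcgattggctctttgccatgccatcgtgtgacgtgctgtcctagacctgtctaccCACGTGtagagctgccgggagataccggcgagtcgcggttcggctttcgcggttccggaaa
The E-box starts 25 bases before the start of Gnl3 and 61 before that of Ltv1. Ltv1 was 0.26, 0.34 and 0.33 in control and 0.62, 0.61 and 0.61 with propiconazole (0.30 ± 0.047, adjusted p = 0.0153). The match is a match of letters only, and the list was the one with the most calls, so its share was not tested. The E-box was not alone in this, as 3 of the other motifs searched were also more frequent in the list: the dioxin response core GCGTG stood in 73% of its promoters against 43.3% of all, the nuclear receptor core site AGGTCA in 27% against 11.2%, and the antioxidant response core TGACNNNGC in 21.6% against 12.5%. None held the D-box (TTATGCAA or TTACGTAA). Over all called genes the shares are given as a description. The E-box CACGTG stood in 9.09% of the promoters of genes that rose and 11.8% of those that fell, against 8.12% of all. The antioxidant response core TGACNNNGC stood in 10.1% of the promoters of genes that rose and 13.2% of those that fell, against 12.5% of all. The nuclear receptor core site AGGTCA, which can share bases with the former on the opposite strand, stood in 9.09% and 17.6% against 11.2%. The D-box (TTATGCAA or TTACGTAA) stood in 1.01% and 1.47% against 0.681%, and the dioxin response core GCGTG, which is short and frequent, in 57.6% and 38.2% against 43.3%. All were searched on both strands.

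Stress genes behaved differently from the ribosome genes: they were higher in some treated livers than in others. None of the 31 tested heat shock and immediate early genes passed in limma (9 had an unadjusted p under 0.05 and were higher, 1 was lower), although their median difference was 0.26. They were uneven within a group, with a median SD among the treated livers of 0.39 against 0.052 over all genes, and among the control livers of 0.17 against 0.055. The list's mean level was 0.70, 1.06 and 1.08 in control livers 01 to 03 and 1.33, 0.84 and 1.70 in propiconazole livers 01 to 03. Treated liver 03 was the highest of its group in 27 of the 31 genes and liver 02 the lowest in 28. In 24 of the 31 (77.4%) the livers stood in the order 02, 01, 03, as they did in 19.8% of all genes tested. What else differed between these livers was not tested.

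The chaperone gene Hspa1a was 0.32, 0.23 and 1.0 in control and 2.60, 1.28 and 3.44 with propiconazole (1.92 ± 0.61, adjusted p = 0.166). Dnajb1, its co-chaperone, was 0.83, 0.94 and 1.03 against 2.14, 1.25 and 3.06 (1.22 ± 0.46, adjusted p = 0.253), and the Hsp70 exchange factor gene Bag3 was 0.75, 0.71 and 0.69 against 1.56, 1.09 and 2.80 (1.11 ± 0.40, adjusted p = 0.227). In each of the 3 genes every treated liver exceeded every control liver, and the treated livers spread over more than 1 unit. Zfand2a, induced by arsenite and heat, was nearly constant in control (0.19, 0.20 and 0.16) and 1.82, 0.72 and 2.84 in the treated livers. The mitochondrial co-chaperone gene Hspe1 was at 2.52, 2.54 and 2.56 in control and 2.93, 2.72 and 3.31 with propiconazole (0.45 ± 0.13, adjusted p = 0.125). The same livers stood out in genes of other lists: the sulfiredoxin gene Srxn1, an NRF2 target, was 0.74, 0.56 and 0.64 in control and 2.13, 1.46 and 2.82 with propiconazole (1.49 ± 0.33, adjusted p = 0.0513), the growth arrest gene Gadd45a was 0.43, 0.31 and 0.10 against 1.37, 0.73 and 2.81, and the pseudokinase gene Trib3 of the ATF4 arm was 0.092, 0.36 and 0.37 against 1.16, 0.54 and 1.70. Hmox1, which passed, shared the pattern, as liver 02 was its lowest treated value and liver 03 its highest. Apart from Hspb8, Hspe1, Trib3 and Hmox1, these genes were chosen after their values were seen.

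**Figure D4:**
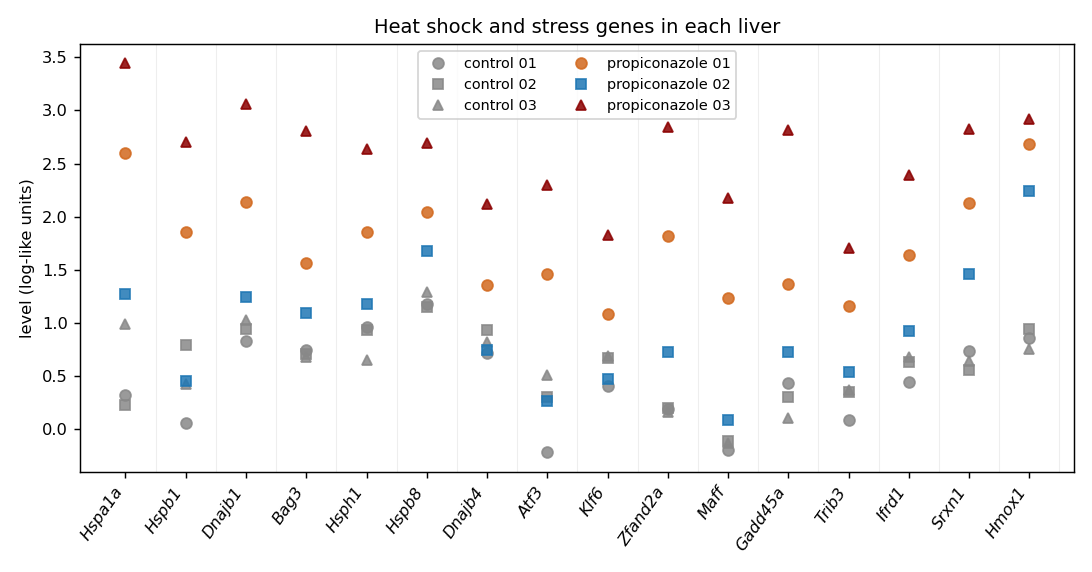
Levels in log-like units of 16 stress genes in the 3 control livers (grey symbols) and the 3 propiconazole livers (orange, blue and dark red symbols, 1 per liver). Liver 03 of the propiconazole group lies highest and liver 02 lowest of the treated livers in all 16 genes, and Hmox1 is the only one of them that passed the test. Most of the 16 were chosen after their values were seen. In the whole list of heat shock and immediate early genes this order held in 24 of 31.

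Several falls concerned extracellular signals and matrix. Beside Inhba, the TGF-beta-responsive gene Tsc22d1 was 2.71, 2.85 and 2.50 in control and 1.70, 1.52 and 1.91 with propiconazole (-0.98 ± 0.17, adjusted p = 0.0268), and these were the 2 of 44 tested activin, TGF-beta and BMP genes that fell (0 rose). Lysyl oxidase (Lox), which cross-links collagen and elastin, was 0.95, 1.26 and 0.62 in control, with liver 03 lowest, and -0.11, -0.052 and -0.015 with propiconazole (-1.0 ± 0.17, adjusted p = 0.021). Nrep, a regulator of TGF-beta signalling, was 1.65, 1.94 and 2.20 against 0.87, 0.77 and 0.85 (-1.10 ± 0.20, adjusted p = 0.027). The 3 treated livers had almost the same low level of Lox and of Nrep, and it was the control livers that varied. For Lox that level was below the deposited medians of the 6 arrays (0.027 to 0.055), so its small spread there says little. Lox and Nrep were the 2 of 40 matrix genes that fell, and 0 rose. Among all genes tested 0.684% fell. The list medians were near that of all genes (-0.013), at -0.025 for activin, TGF-beta and BMP genes and -0.045 for matrix genes. With 1 liver left out the adjusted p reached 0.113 for Tsc22d1, 0.0883 for Lox and 0.124 for Nrep.

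Markers of the liver's endothelial and stellate cells stood lower in the treated livers. The sphingosine phosphate receptor gene S1pr1 was 2.21, 2.36 and 2.41 in control and 1.70, 1.65 and 1.37 with propiconazole (-0.75 ± 0.12, adjusted p = 0.017), the VEGF receptor gene Kdr 1.63, 1.75 and 1.73 against 1.16, 1.15 and 0.88 (-0.64 ± 0.11, adjusted p = 0.0268), and the angiopoietin receptor gene Tek 0.63, 0.65 and 0.59 against 0.40, 0.31 and 0.26 (-0.30 ± 0.055, adjusted p = 0.0283). These receptors were 3 of 16 tested endothelial markers, of which 3 lay above 0 and 0 rose, and the list's mean level was 0.81 to 0.84 in the control and 0.62 to 0.68 in the propiconazole livers. The fall was not shared by all markers of the cell type, as Pecam1 stood at 0.067 ± 0.048, Stab2 at -0.20 ± 0.099 and Lyve1 at -0.067 ± 0.13 (adjusted p = 0.564, 0.382 and 0.868), values chosen after they were seen. Of 14 stellate cell and fibroblast markers, the PDGF receptor gene Pdgfra (0.73, 0.81 and 0.65 against 0.37, 0.31 and 0.36, -0.39 ± 0.066, adjusted p = 0.0225) and the retinol-storing enzyme gene Lrat (0.55, 0.69 and 0.72 against 0.34, 0.22 and 0.20, -0.40 ± 0.069, adjusted p = 0.0231) fell, and the list's mean level was 0.55 to 0.63 in control and 0.44 to 0.50 with propiconazole. In whole liver, fewer cells of a type and less RNA per cell cannot be told apart, and the part of cell composition in the other falls was not tested. The 12 tested Kupffer cell and macrophage markers had no call in limma (0 with an unadjusted p under 0.05), with list levels of 1.24 to 1.41 in control and 1.19 to 1.34 with propiconazole. Lower values were not confined to endothelial and stellate markers. Above 0 lay 1 of the 12 Kupffer, 1 of 14 lymphocyte and natural killer cell and 3 of 14 stellate markers, against 43.9% of all genes tested. The lymphocyte list, also without a call, stood at 0.075 to 0.11 in control and 0.013 to 0.071 with propiconazole. In no list, the alarmin cytokine gene Il33 was 1.18, 1.25 and 1.01 in control and 0.52, 0.44 and 0.34 with propiconazole (-0.71 ± 0.13, adjusted p = 0.0278).

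Some receptors of G protein signalling fell with S1pr1. The adrenergic receptor gene Adra1b, through which catecholamines act on rat hepatocytes, was 1.44, 1.63 and 1.48 in control and 0.84, 0.81 and 0.98 with propiconazole (-0.64 ± 0.14, adjusted p = 0.045), and the angiotensin receptor gene Agtr1a was 1.84, 2.09 and 1.87 against 1.46, 1.44 and 1.18 (-0.57 ± 0.10, adjusted p = 0.0268). Of 31 genes of that list 3 fell and 0 rose, while 0.684% of all genes tested fell. The other 28 did not pass. The list as a whole lay near all genes, with 41.9% above 0 against 43.9% and a median of -0.030 against -0.013. Among receptor tyrosine kinase and phosphatase genes in no list, Fgfr2 was 0.95, 1.05 and 1.0 against 0.59, 0.60 and 0.63 (-0.40 ± 0.068, adjusted p = 0.0221), and Ptprf was 1.66, 1.66 and 1.57 against 0.84, 1.23 and 1.06 (-0.59 ± 0.10, adjusted p = 0.024). Of these receptors S1pr1 was the steadiest, with an adjusted p of up to 0.0884 without 1 liver, against 0.117 for Kdr, 0.131 for Tek, 0.177 for Adra1b and 0.113 for Agtr1a. Fgfr2, in no list, was chosen after its values were seen.

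Among the genes of sterol handling 2 fell and 0 rose. Cyp51, the mammalian counterpart of the fungicide's target, was 2.03, 2.50 and 2.17 in control and 2.05, 1.89 and 2.31 with propiconazole, and the groups overlapped (-0.15 ± 0.15, adjusted p = 0.717). Nsdhl, which acts after Cyp51 in cholesterol synthesis, was 2.41, 2.44 and 2.44 in control and 1.94, 2.07 and 2.02 with propiconazole and was the 1 of 17 cholesterol synthesis genes that fell (-0.42 ± 0.079, adjusted p = 0.0299, with 2 of 2 probe sets past the test). Insig2, which helps to retain the SREBP transcription factors in the endoplasmic reticulum, was 2.49, 2.63 and 2.64 against 1.95, 1.66 and 1.51 (-0.88 ± 0.13, adjusted p = 0.0153) and was the 1 of 26 sterol sensing and transport genes that fell. With the deposited values Nsdhl stood at -0.50 (adjusted p = 0.0698) and after median centring at -0.49 (0.060), so 0 cholesterol synthesis genes fell in either. The medians of the lists were -0.11 and -0.10, with 5 of 17 and 7 of 26 genes above 0. Bile acid genes lay lower without a call in limma: 2 of 21 were above 0, the median was -0.13 (-0.24 with the deposited values and -0.22 after median centring), 4 had an unadjusted p under 0.05 and were lower, and 1 was higher. The repressor gene Nr0b2 came closest (1.10, 1.69 and 1.0 against 0.51, 0.50 and 0.75, -0.67 ± 0.15, adjusted p = 0.0544). Cyp7a1, which catalyses the limiting step from cholesterol to bile acids, was 1.41, 1.90 and 1.46 in control and 2.20, 1.57 and 0.88 with propiconazole, a spread that covered the controls on both sides. With 1 liver left out the adjusted p reached 0.124 for Nsdhl and 0.0768 for Insig2.

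Single enzymes of several metabolic routes changed. Among fat genes, the triglyceride lipase gene Pnpla2 was 0.67, 0.57 and 0.58 in control and 1.34, 1.28 and 0.86 with propiconazole (0.56 ± 0.10, adjusted p = 0.0299), the lipid droplet coat gene Plin3 rose by 0.55 ± 0.089 (adjusted p = 0.017), and the mitochondrial carnitine palmitoyltransferase gene Cpt2 by 0.57 ± 0.12 (adjusted p = 0.0388). They were 2 of 41 lipid synthesis and droplet genes and 1 of 38 fatty acid oxidation genes, and 0 fell in either list. Ppp1r3b, which targets a phosphatase to glycogen, was 2.14, 1.97 and 1.84 in control and 0.80, 0.64 and 0.94 with propiconazole, the third deepest fall of a named gene (-1.19 ± 0.24, adjusted p = 0.0365) and the 1 of 23 glycogen genes that fell (0 rose). Aldolase A (Aldoa), the muscle form of the glycolytic enzyme, was 1.16, 0.95 and 0.91 against 1.55, 1.79 and 1.75 (0.69 ± 0.13, adjusted p = 0.0285) and was the 1 of 30 glucose genes that rose (0 fell). Glycerol kinase (Gk) and the glycerol channel gene Aqp9, in no list, were lower by -0.52 ± 0.11 and -0.45 ± 0.096 (adjusted p = 0.049 and 0.0469). Aqp9 was chosen after its values were seen. Apoa1, the main protein of high density lipoprotein, was 3.20, 3.07 and 3.04 in control and 3.53, 3.64 and 3.60 with propiconazole (0.49 ± 0.089, adjusted p = 0.0278), while 10 of the 51 tested apolipoprotein and plasma protein genes lay above 0 and their median was -0.066. That median was -0.35 in the deposited values and -0.34 after median centring. Apoa1 did not pass in either (0.23 and 0.25, adjusted p = 0.581 and 0.461). Without 1 liver the adjusted p reached 0.131 for Pnpla2, 0.126 for Ppp1r3b, 0.139 for Aldoa and 0.124 for Apoa1.

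Amino acid and cofactor genes moved in both directions. Ornithine aminotransferase (Oat) was 2.37, 2.20 and 2.12 in control and 1.69, 1.56 and 1.30 with propiconazole (-0.71 ± 0.14, adjusted p = 0.0322), opposite to Asl, and the pair were the 2 of 45 urea cycle and amino acid genes that passed. Oat is a gene of hepatocytes around the central vein, and it was the 1 of 12 pericentral markers that fell. The list's level was 1.87 to 1.93 in control and 1.55 to 1.81 with propiconazole, and the part of liver zonation in the change of Oat was not tested. Cystathionine gamma-lyase (Cth), which makes cysteine, fell by 0.45 ± 0.094 (adjusted p = 0.0414), and with Slc6a6 it made the 2 of 32 sulfur amino acid genes that fell (0 rose). In polyamine metabolism 2 of 17 genes rose and 0 fell: the acetyltransferase gene Sat1 was 1.94, 2.15 and 2.26 in control and 2.95, 2.60 and 3.07 with propiconazole (0.76 ± 0.15, adjusted p = 0.0323), and Azin1, which shields ornithine decarboxylase from antizyme, was 0.72, 0.58 and 0.53 against 1.26, 1.14 and 1.49 (0.69 ± 0.09, adjusted p = 0.00682). Of the 3 probe sets of Azin1, 1 had the opposite sign. Of 29 NAD genes 2 rose and 0 fell, Nampt, the limiting enzyme of NAD salvage (0.69, 0.54 and 0.80 against 1.60, 1.19 and 1.89, 0.89 ± 0.15, adjusted p = 0.0218), and Nnmt, which methylates nicotinamide (1.41, 1.58 and 1.34 against 1.97, 1.87 and 1.86, 0.46 ± 0.094, adjusted p = 0.0406). Coq10a, the paralog of Coq10b, fell where Coq10b rose, from 0.84, 0.88 and 0.86 to 0.59, 0.55 and 0.56 (-0.29 ± 0.058, adjusted p = 0.0373), and of 14 coenzyme Q genes no other passed. Coq10a did not pass with the deposited values (-0.26, adjusted p = 0.0646) or after median centring (-0.24, adjusted p = 0.101), and neither did Sat1 (adjusted p = 0.152 and 0.132), Cth (0.116 and 0.0896) or Nnmt (0.0725 and 0.0549). Without 1 liver the adjusted p reached 0.0501 for Azin1, 0.103 for Nampt, 0.134 for Oat, 0.142 for Sat1, 0.14 for Coq10a, 0.181 for Nnmt and 0.176 for Cth.

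Regulators and structural genes made up much of the rest. The glucocorticoid-induced co-chaperone gene Fkbp5 was 0.27, 0.46 and 0.53 in control and 1.26, 1.44 and 1.06 with propiconazole (0.83 ± 0.13, adjusted p = 0.0177), with both probe sets past the test, but it was the 1 of 24 glucocorticoid targets that did so, and their median was 0.0094, or -0.012 with the deposited values. Cyclin G1 (Ccng1), a p53 target, was 0.51, 0.74 and 0.48 against 1.29, 1.11 and 1.33 (0.67 ± 0.091, adjusted p = 0.00899). It and Rprm moved in opposite directions and were the 2 of 20 p53 and growth arrest genes that passed. Npas2 was the 1 of 20 clock genes that passed. Its relatives and outputs lay at -0.37 ± 0.094 for Bmal1, -0.13 ± 0.094 for Clock and 0.72 ± 0.16 for Dbp (adjusted p = 0.0907, 0.574 and 0.0583), chosen after their values were seen. The plakin gene Ppl was -0.13, -0.13 and -0.21 in control and 0.86, 0.51 and 0.70 with propiconazole (0.85 ± 0.17, adjusted p = 0.0406) and desmoplakin (Dsp) 1.11, 1.10 and 1.19 against 1.58, 1.67 and 1.58 (0.48 ± 0.09, adjusted p = 0.0295), so that these 2 plakins were higher while Cldn1 was lower. The other probe set of Dsp had the opposite sign. The tubulin gene Tubb2a was 2.21, 2.18 and 2.38 against 1.48, 1.18 and 1.78 (-0.78 ± 0.14, adjusted p = 0.0283) and was the 1 of 29 tubulin and microtubule genes that passed. Lrrfip1 (0.83 ± 0.14), the mitophagy receptor gene Bnip3 (0.76 ± 0.14), the proton pump subunit gene Atp6v1b2 (0.67 ± 0.12), the complex I assembly factor gene Ndufaf4 (0.62 ± 0.087), the phosphatase gene Ptp4a1 (0.62 ± 0.12) and the liver transcription factor gene Foxa3 (0.62 ± 0.13) rose too, with adjusted p from 0.0107 to 0.0482. With 1 liver left out the adjusted p reached 0.0786 for Fkbp5, 0.0585 for Ccng1, 0.166 for Ppl and 0.139 for Tubb2a.

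The 45 lists of gene functions covered 1161 different genes, of which 36 rose and 21 fell. So 142 of the 199 called genes belonged to none of these 45, though some are in a marker list. Of those, 3 sphingolipid enzymes rose and were picked out after their values were seen: the ceramidase gene Acer2 (0.34, 0.51 and 0.42 against 0.94, 0.83 and 0.81), the sphingomyelin synthase gene Sgms1 (0.14, 0.09 and 0.10 against 0.55, 0.50 and 0.44) and the dihydroceramide desaturase gene Degs1 (1.27, 1.34 and 1.25 against 1.68, 1.77 and 1.57), with differences of 0.43 ± 0.093, 0.39 ± 0.084 and 0.39 ± 0.078 (adjusted p = 0.0478, 0.0478 and 0.0377). Alkaline phosphatase (Alpl), a serum marker of bile duct injury, was 0.031, 0.03 and -0.039 in control and 0.26, 0.40 and 0.36 with propiconazole (0.33 ± 0.058, adjusted p = 0.0251). The retinoblastoma gene Rb1 fell by 0.24 ± 0.05 and the fatty acid receptor gene Ppard by 0.26 ± 0.055 (adjusted p = 0.0406 and 0.0433). These too were chosen after their values were seen.

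Several large groups of genes had at most 1 call. None of 48 respiratory chain subunits passed in limma, 0 had an unadjusted p under 0.05 in either direction, and their differences stayed between -0.17 and 0.14, while the 95% interval of a gene reached 0.15 to either side at the median. Their median was -0.0038 with 23 of 48 above 0, but -0.097 with the deposited values and -0.081 after median centring, with 12 of 48 above 0 in both. Cell cycle genes had no call among 34 in limma, although 30 lay above 0, 12 had an unadjusted p under 0.05 and were higher, and 0 were lower. The replication clamp gene Pcna had the largest difference (1.03, 1.19 and 1.18 against 1.66, 1.42 and 1.59, 0.43 ± 0.11, adjusted p = 0.107). Of 40 proteasome subunits 33 lay above 0, with a median of 0.13, and 1 rose, Psmd5 (0.95, 0.95 and 1.02 against 1.33, 1.31 and 1.48, 0.40 ± 0.084, adjusted p = 0.045). None of 26 acute phase genes (3 unadjusted higher, 0 lower), 34 interferon genes and chemokines (2 and 5), 37 endoplasmic reticulum and ATF4 genes (4 and 2), 27 growth hormone and sex-biased genes (1 and 6), 23 steroid and thyroid hormone genes (3 and 2), 17 iron genes (2 and 4) or 35 peroxisome and lysosome genes (3 and 4) passed in limma. Within these, Stat3 stood at 0.43 ± 0.14, the hepatokine gene Igf1 at -0.28 ± 0.087 and the peroxisome gene Pxmp4 at 0.75 ± 0.18 (adjusted p = 0.185, 0.155 and 0.0688).

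Myclobutanil was given at the same dose, which allowed the 2 compounds to be set against each other without the control livers. Both carry a triazole ring, with a dioxolane ring in propiconazole and a nitrile and a butyl chain in myclobutanil. No probe set passed the test of the difference in limma (2200 of 21729, or 10.1%, had an unadjusted p under 0.05, and the smallest adjusted p was 0.0586). A p that misses the threshold does not show that the compounds act alike, and the median 95% interval reached 0.15 units to either side. Without myclobutanil liver 01 the count was 29, without 02 it was 9, without 03 it was 1, and without propiconazole liver 03 it was 2. With limma's array weights, whose estimation stopped before it converged, it was 343. The genes that follow were picked for the size of their difference. Propiconazole minus myclobutanil, Cyp51 differed by -0.78 (95% interval -1.11 to -0.44) and Nsdhl by -0.43 (-0.60 to -0.26). Tubb2a differed by -0.92 (-1.24 to -0.61), Pgpep1, a pyroglutamyl peptidase gene, by -0.63 (-0.82 to -0.44), and Rprm by -0.32 (-0.41 to -0.22). On the other side Asl differed by 0.60 (0.38 to 0.82), the estradiol-oxidizing Hsd17b2 by 1.42 (0.81 to 2.03) and Fkbp5 by 0.51 (0.21 to 0.80). Their adjusted p lay between 0.0593 for Rprm and 0.327 for Fkbp5, so none of these differences passed. In genes such as Lox (interval -0.36 to 0.38), Stac3 (-0.13 to 0.98) and Snhg4 (-0.13 to 0.22) the interval included 0.

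Against the same 3 control livers, which the contrasts share, the values of each compound can be read side by side. Hmox1 stood at 1.76 ± 0.29 with propiconazole, 1.06 ± 0.29 with myclobutanil and 1.0 ± 0.29 with triadimefon. Coq10b stood at 1.28 ± 0.17, 0.86 ± 0.17 and 1.47 ± 0.17 in the same order, and Por at 1.04 ± 0.13, 0.64 ± 0.13 and 1.24 ± 0.13. Cyp51 was at -0.15 ± 0.15 with propiconazole and at 0.63 ± 0.15 and 0.39 ± 0.15 with the others, and Tubb2a at -0.78 ± 0.14, 0.15 ± 0.14 and -0.63 ± 0.14. Gnl3 of the ribosome list stood at 0.55 ± 0.11, 0.35 ± 0.11 and 0.57 ± 0.11. Triadimefon was given at a lower dose in mg/kg/day, so its values carry no comparison.

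**Figure D5:**
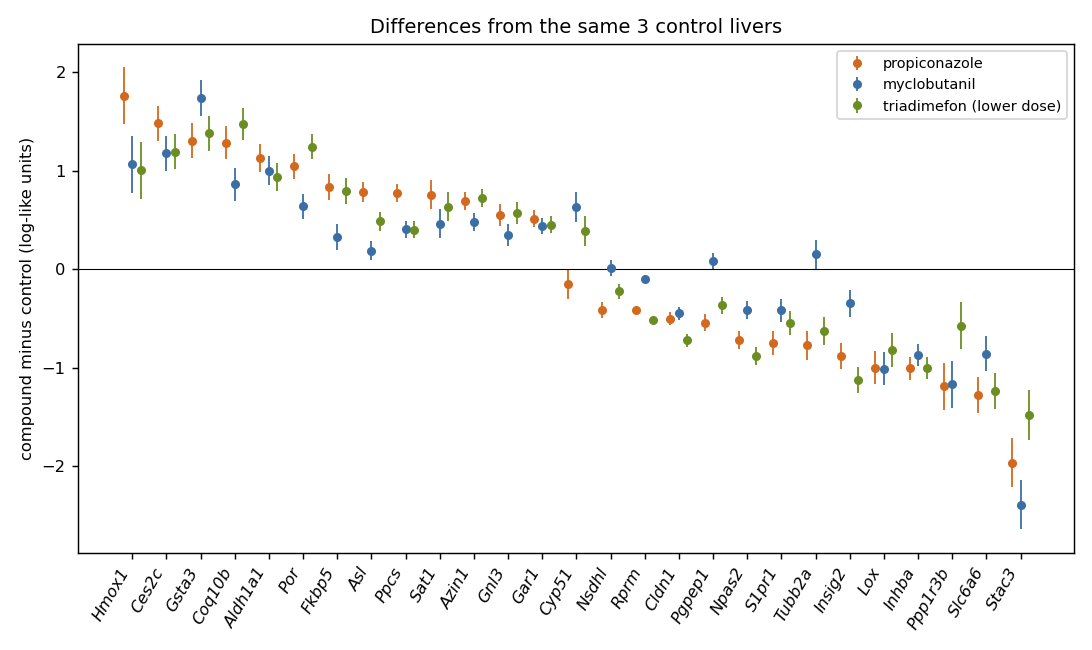
Difference from the 3 shared control livers in log-like units (y axis) for 27 genes with propiconazole (orange), myclobutanil (blue) and triadimefon (green, at a lower dose), with bars of ± 1 SE from limma. Cyp51, Nsdhl, Pgpep1 and Tubb2a lie below 0 with propiconazole and at or above 0 with myclobutanil, and the other 23 genes lie on the same side of 0 with both.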

How the data were processed

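Per the labels, 12 rat livers, 3 in each of 4 groups, were hybridized to 12 Affymetrix Rat Genome 230 2.0 arrays. The authors deposited 1 score per probe set; how it was summarised and normalized, and its log base, is not given in the sources used here. The plan assumed log values, and as their base could not be settled no fold is given. Without the 57 control probe sets, the arrays were quantile normalized and the 30% of probe sets with the lowest mean (9313) dropped. Of the 21729 tested, the platform's annotation (possibly outdated) assigned 16078 to 1 gene, 363 to several and 5288 to none. Entrez IDs were matched to RefSeq genes of GRCr8 to update symbols (20758 probe sets of the array, with 68 kept as they were). The probe set with the highest mean stands for its gene.

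limma 3.58.1 (R 4.3.3) fitted 4 group means to all 12 arrays (8 residual degrees of freedom) with an intensity trend; tests were two-sided with Benjamini-Hochberg adjustment over 21729 probe sets. The script was tested on simulated data with 200 changed probe sets. Gene lists are described by counts and medians. Named genes are the 30 largest rises and 30 largest falls that passed with no overlap of the groups; from each list 5 members that passed at most, or if there were none the 2 with the smallest p; those that passed among the 100 genes of highest level or between propiconazole and myclobutanil; and Por, Hmox1, Ces2c, Cyp1a1, Cyp1a2, Cyp3a23-3a1, Cyp51, Cyp7a1, Alas1, Insig2, Stac3, Slc6a6, Inhba, Coq10b and Nampt. Members and lists were chosen with earlier results of these data known. Alternatives changed the scaling, the filter, the variance model, array weights, a replicate block and the arrays included. Plots used matplotlib 3.10.9 and pandas 2.3.3 (Python 3.11.15). The number of arrays limits the precision.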

Additional observations from a re-analysis of the deposited data

How the results depend on the processing

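Called genes among those named kept their direction in all 1279 gene and setting values computed. This was largely fixed beforehand, as the groups overlap in none of the called genes and leaving out 1 array can hardly turn such a sign. The filter and the variance model leave the difference itself as it is. Those not called reversed in 5 of 606. Cyp7a1 stood at 0.114 without control replicate 02 and 0.296 without propiconazole replicate 03, Cyp1a2 at 0.0156 and 0.0226 in the same settings, and Alas1 at -0.0773 without control replicate 03. With 1 array left out they ranged from -0.364 to 0.296, from -0.130 to 0.0226 and from -0.0773 to 0.254. The count of probe sets past the test for propiconazole against control (311) was 648 with only the 6 arrays of the compared groups, 162 with no moderation and 1313 with array weights (whose estimation stopped before it converged), and 36 to 170 with 1 of the 6 arrays left out. Of the 80 named genes past the test, 35 passed with no moderation and 17 to 44 with 1 array left out, and 27 passed in none of those 6 settings. The 11 ribosome biogenesis genes became 7 after median centring, 4 with no filter on dim probe sets, 17 with only 6 arrays, 3 with no moderation, 22 with array weights and 0 to 5 with 1 array left out. Without myclobutanil replicate 01, an alternative added after seeing the data as were all those of the ribosome count, 969 probe sets and 19 ribosome genes passed. For propiconazole against myclobutanil the count of 0 became 1 with the deposited values, 1 after median centring, 2 with 50% of probe sets left out as dim, 5 without the intensity trend, 1 with no moderation, 343 with array weights and 0 to 29 with 1 array left out. The causes were not tested. With the smallest p in place of the highest mean choosing each gene's probe set, 66 in place of 57 genes of the lists of gene functions passed.

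The replicate numbers of the titles were checked as pairs: deviations from the group means correlated at -0.494, -0.420 and 0.173 for numbers 01, 02 and 03, so the livers share only a number. With the replicate block 121 probe sets, 44 of the 80 named genes and 1 ribosome biogenesis gene passed against control, and 0 probe sets against myclobutanil.

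List medians near 0 changed sign with the scaling for UDP-glucuronosyltransferases and sulfotransferases, cell junctions, gluconeogenesis and glycolysis, insulin signalling, glucocorticoid targets, steroid and thyroid hormone metabolism and red cell markers.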

Other observations

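Some genes varied widely between livers of both groups, whatever the treatment. The glucuronosyltransferase gene Ugt2b, in its representative probe set, was at 0.29, 2.67 and 2.80 in control livers 01 to 03 and at 0.39, 2.61 and 2.57 in propiconazole livers 01 to 03, so that liver 01 was low in both groups. The insulin-regulated gene Igfbp1 was at 0.93, 2.28 and 2.25 in control and 2.97, 1.33 and 3.02 with propiconazole, and the immediate early gene Jun at 0.27, 1.94 and 1.87 against 1.64, 0.22 and 1.65. In Igfbp1 and Jun, control liver 01 and propiconazole liver 02 were the lowest of their groups.

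For 37 genes another probe set passed the test and the one with the highest level did not. Igf1 stood at -0.46 in the probe set that passed (-0.28 in its representative), the chemokine gene Cxcl12 at -0.51 (-0.30), the translation initiation factor gene Eif1a at 0.67 (0.57) and the nucleolar phosphoprotein gene Nolc1 at 0.55 (0.13). Probe sets without a single assigned gene made up 59 of the 311 calls, 49 of them with no gene, of which 14 were higher and 35 lower. The largest difference among the 49 with no gene was in a probe set at 0.85, 0.85 and -0.24 in control and 2.96, 2.77 and 2.50 with propiconazole (limma adjusted p = 0.00492). Among the 10 assigned to several genes, which no list counts, the largest was a rise of 1.72 ± 0.17 (limma adjusted p = 0.00469). That probe set was at 1.52, 1.14 and 1.44 in control and 3.07, 3.05 and 3.15 with propiconazole.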
